A study of Mus musculus with 22 samples.

Results

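The question addressed here was whether loss of the enhancers E1 and E2 changed the transcriptome of mouse embryonic stem cells additively, that is, whether the cells lacking both differed from unedited cells by the sum of what each deletion did alone. The answer was measured in 12 RNA-seq libraries, 3 from each of 4 genotypes, out of 22 samples in the series. All 12 came from E14, an established line of blastocyst-derived embryonic stem cells, and were labelled as retinoic acid (RA) treated for 1 day, with LIF and the inhibitors of MEK and GSK3 (2i) withdrawn and RA given at 2 uM. The genotypes were an unedited WT, the single deletions E1-KO and E2-KO, and D-KO. The letter D is not spelled out in the labels, and D-KO is read here as the deletion of both E1 and E2. The labels call the replicates biological without saying how they were separated, and they do not give the number of clones behind a genotype, the positions of E1 and E2, or a deletion at any other locus. The p-values therefore measure the spread between these libraries, which may lie within 1 clone of a genotype. The fit shares 1 estimate of that spread per gene over the 4 genotypes.

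HoxB genes form 1 of the 4 mammalian Hox clusters, arrays of homeodomain transcription factors that give cells their position along the head-to-tail axis. RA enters cells, binds nuclear RAR and RXR receptors on DNA, and switches Hox genes on from the Hoxb1 end of the cluster towards Hoxb9 and Hoxb13. When 2 enhancers serve 1 gene, their joint loss can equal the product of the separate losses, fall short of it because either loss is already enough, or exceed it because each covers for the other.

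Non-additivity was measured per gene as D-KO minus E1-KO minus E2-KO plus WT on the log2 scale, called the contrast below. A contrast of 0 means that the log2 differences from WT of the single deletions add up to that of D-KO. A positive contrast means that D-KO stood above that sum, and a negative contrast that it stood below it. The same number is the effect of deleting E2 in cells without E1, minus its effect in cells with E1. By its arithmetic, any difference from WT shared equally by the 3 edited genotypes enters the contrast once, with its sign turned round. Expression is given per library as CPM, the counts of a gene scaled to the TMM-adjusted library total, and contrasts as log2 values ± standard error (SE) from edgeR's quasi-likelihood test with Benjamini-Hochberg adjustment over all genes tested. A gene is called when the adjusted p is below 0.05.

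The libraries held between 9101547 and 13007735 counts on genes. The WT libraries stood apart from the edited ones in their spread: the median over genes of the SD of log2 CPM was 0.342 among WT, against 0.097 for E1-KO, 0.108 for E2-KO and 0.1 for D-KO. WT replicate 2 differed from WT replicates 1 and 3 in how expression related to GC content, with a Spearman correlation across genes of 0.14, against -0.565 and -0.435. Mitochondrially encoded genes took 3.5%, 1.94% and 5.88% of counts in the WT libraries, 1.36% to 1.48% of counts in E1-KO, 1.63% to 1.81% of counts in E2-KO and 2.53% to 2.69% of counts in D-KO. Nanog, a defining marker of embryonic stem cells, stood between 583 and 928 CPM in the 12 libraries. Y-linked genes had 1079 to 1227 counts in each WT library and 0 or 1 in each of the 9 edited libraries, a difference from WT that the 3 edited genotypes share. The part of these differences in the contrasts below was not tested, and an effect of the deletions cannot be told apart from a difference shared by the edited lines.

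Departures from additivity were spread over the transcriptome in both directions. Of 16765 genes tested, out of 52535 listed, 5909 (35.2%) were called, 3040 (18.1%) with a positive and 2869 (17.1%) with a negative contrast. The size was at least 1 log2 unit for 3354 of them. In the same fit, 5739 genes (34.2%) differed between E1-KO and WT, 5919 (35.3%) between E2-KO and WT and 3824 (22.8%) between D-KO and WT. D-KO differed from E1-KO in 2674 genes (15.9%) and from E2-KO in 751 (4.48%). These counts rest on a spread shared by all genotypes, though WT libraries varied most. With a weight per genotype, limma voom called 3278 genes for E1-KO, 3229 for E2-KO and 1927 for D-KO against WT. It called 7960 for D-KO against E1-KO, 5678 for D-KO against E2-KO and 5499 for the contrast. Without WT replicate 2 the contrast was called for 8673 genes, and without WT replicates 1 and 3 for 6934. Scaled by library totals in place of TMM, 5745 genes were called, of which 38.7% were positive in place of 51.4%, and the median contrast of all genes moved from -0.01 to -0.179.

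In most called genes D-KO lay nearer to WT than the single deletions did. Among the 5909 called genes, both single-deletion means lay on one side of both the WT and the D-KO mean in 5099 (86.3%), an order seen in 52.9% of all genes tested. The contrast itself favours that order and those below, so the shares are descriptions. WT had the highest of the 4 means in 2347 of the 3040 genes with a positive contrast and the lowest in 2187 of the 2869 with a negative one. D-KO lay on the same side of WT as both single deletions and nearer to WT than either in 3851 called genes (65.2%, against 36.4% of all tested). It lay within 0.5 log2 units of both single deletions in 2994 (50.7%, against 64.3% of all tested). Every WT and D-KO library lay on one side of every E1-KO and E2-KO library in 2072 genes (12.4% of those tested), an order that sets the contrast away from 0, and 2034 of these were called.

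**Figure D1:**
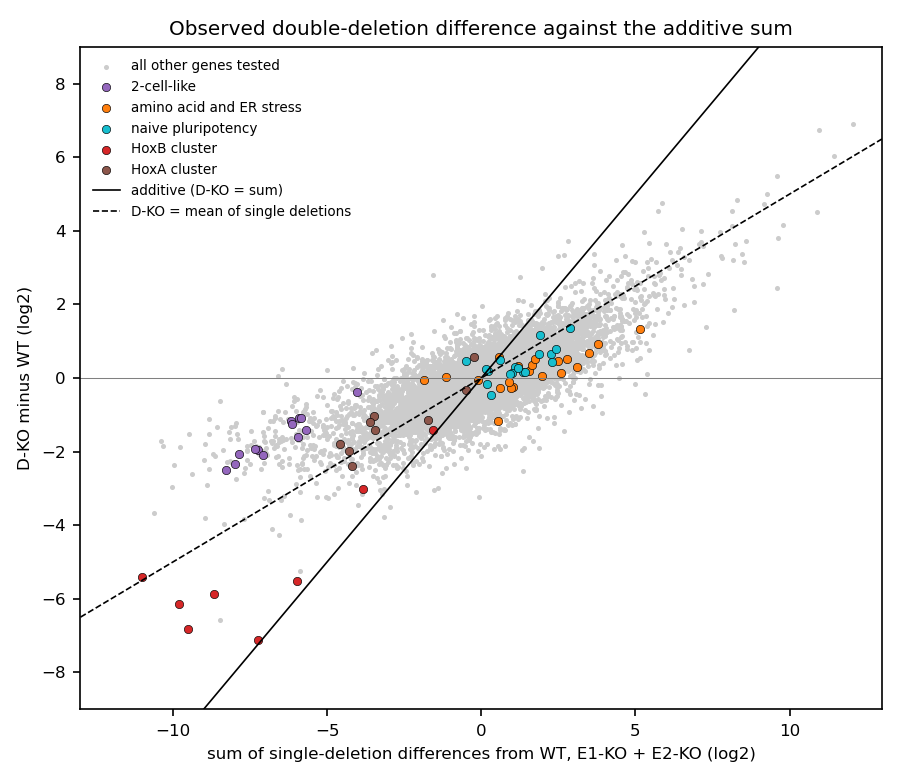
Log2 difference of D-KO from WT (vertical axis) against the sum of the log2 differences of E1-KO and E2-KO from WT (horizontal axis), 1 point per gene. The solid line marks additivity and the dashed line a D-KO difference equal to the mean of the single deletions. Of 16765 genes, 16755 are drawn; 8 listed genes with a genotype at 0 counts, Hoxb5 and Hoxb6 among them, are left out and 2 lie beyond the axes. The grey cloud follows the dashed line more closely than the solid one. WT is subtracted once on the vertical axis and 2 times on the horizontal one. Any error in WT, or difference shared by the edited genotypes, therefore moves points along the dashed slope by arithmetic. The 2-cell-like genes (purple) lie far above the solid line on the left, and Hoxb4 is the HoxB gene on the solid line at the lower left.

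Hoxb1, at the RA-sensitive 3' end of the cluster, had the largest positive contrast of the HoxB genes. Its level was 17.2, 31.4 and 20.1 CPM in WT, between 0.186 and 0.403 CPM in E1-KO, 0.322, 1.15 and 1.04 CPM in E2-KO, and 0.303, 0.405 and 0.877 CPM in D-KO. The D-KO libraries lay within the range of the single deletions. The 759 counts of WT became 9 counts in E1-KO, 25 counts in E2-KO and 16 counts in D-KO, where the product of the separate losses would leave 0.306. The contrast was 5.60 ± 0.82 (adjusted p = 0.000178, edgeR's quasi-likelihood test), and D-KO differed from E1-KO by 0.85 ± 0.70 (adjusted p = 0.411) and from E2-KO by -0.66 ± 0.57 (adjusted p = 0.517). With a product level under 3 counts, multiplicative loss would have left Hoxb1 below what these libraries can count.

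The upstream stretches of Hoxb1 and Hoxb4, the HoxB genes with the largest called contrast and with a contrast near 0, are shown for comparison. They are the 250 bases before the RefSeq start of each gene (GRCm38.p6, plus strand), and 3 of the 10 HoxB genes matched an entry of the RefSeq promoter table. Hoxb1 lies at chr11:96365508-96365757 and Hoxb4 at chr11:96318017-96318266. Both strands were searched for TGATNNAT, a core bound by PBX and HOX proteins together, and for AGGTCA, the core site of RAR and RXR. Capitals mark the matches.
Hoxb1: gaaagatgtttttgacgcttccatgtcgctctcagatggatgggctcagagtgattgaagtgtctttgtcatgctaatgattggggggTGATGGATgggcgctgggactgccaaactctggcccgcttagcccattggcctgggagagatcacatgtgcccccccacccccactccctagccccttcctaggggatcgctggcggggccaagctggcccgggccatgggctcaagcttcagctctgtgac
Hoxb4: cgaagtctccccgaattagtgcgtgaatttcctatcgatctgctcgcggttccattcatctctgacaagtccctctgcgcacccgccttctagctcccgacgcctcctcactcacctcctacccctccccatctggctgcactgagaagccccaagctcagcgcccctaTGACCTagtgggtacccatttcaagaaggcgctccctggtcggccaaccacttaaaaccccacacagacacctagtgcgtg
The Hoxb1 stretch held 1 TGATNNAT match and no AGGTCA, and the Hoxb4 stretch no TGATNNAT and 1 AGGTCA on the minus strand. Of 32851 upstream stretches of the same length, 7.68% held TGATNNAT and 14.02% held AGGTCA, and the matches do not overlap. A match is a description of the letters and not a binding site.

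Hoxb4, a mid-cluster gene, behaved most nearly as the product of the separate losses. It stood at 31.5, 38.6 and 17.3 CPM in WT, 1.23, 2.05 and 1.01 CPM in E1-KO, 4.4, 3.65 and 3.7 CPM in E2-KO, and 0.101, 0.405 and 0.0974 CPM in D-KO. Every D-KO library lay below every single-deletion library. WT held 972 counts, E1-KO 45, E2-KO 115 and D-KO 6, beside a product of 5.5. Hoxb4 fell in D-KO against E1-KO (-2.77 ± 0.75, adjusted p = 0.00916, edgeR) and against E2-KO (-4.21 ± 0.73, adjusted p = 0.000847). The contrast was 0.13 ± 0.81, with a 95% interval from -1.60 to 1.86 (adjusted p = 0.964), which leaves room for a departure of more than 1 log2 unit either way. Its sign turned under 4 of the alternative settings, to as low as -0.811 without D-KO replicate 2.

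Hoxb2, next to Hoxb1, fell between these patterns. Its WT libraries held 32.7, 37.1 and 13.9 CPM, E1-KO 1.23, 0.93 and 0.605 CPM, E2-KO 1.5, 1.77 and 2.85 CPM, and D-KO 0.404, 0.607 and 0.39 CPM. D-KO lay below every E2-KO library, and its highest value reached the lowest of E1-KO. Against E2-KO it was lower by the test (-2.11 ± 0.59, adjusted p = 0.0406, edgeR) and against E1-KO the difference was -0.97 ± 0.64 (adjusted p = 0.298). The contrast of 2.79 ± 0.74 was called (adjusted p = 0.0141), and without D-KO replicate 2 it was not (adjusted p = 0.0624).

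Hoxb5 and Hoxb6 had no count in any D-KO library, after 374 and 266 counts in WT, 12 and 8 counts in E1-KO, and 29 and 9 counts in E2-KO. A count of 0 allows up to 3 counts over the D-KO libraries together, which bounds the contrast at no more than 1.64 for Hoxb5 and 3.42 for Hoxb6, so neither sign can be given. These bounds cover counting error only. Hoxb3 had 349 counts in WT, 2 with E1 deleted, 44 with E2 deleted and 4 in D-KO, and the ratio of D-KO to E1-KO was 1.06 log2 units with a counting interval from -1.75 to 4.52. Its E1-KO level was already at the limit of detection, and the contrast of 3.68 ± 1.81 was not called (adjusted p = 0.106, edgeR), though it was by DESeq2 (adjusted p = 0.0331), by limma voom (adjusted p = 0.0108) and by edgeR with no filter on low counts (adjusted p = 0.0165). Hoxb7 had 160, 20, 18 and 3 counts in the same order, with a ratio of D-KO to E1-KO of -2.68 (-5.08 to -0.929) and of D-KO to E2-KO of -2.61 (-5.02 to -0.838). Its contrast was 0.48 ± 1.07 (adjusted p = 0.814).

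At the 5' end, Hoxb8, Hoxb9 and Hoxb13 gave no called contrast in the edgeR fit. Hoxb8 had 560, 22, 15 and 4 counts in that order (2.68 ± 1.32, adjusted p = 0.184, edgeR), and it was called by limma voom (adjusted p = 0.044) and by edgeR with no filter on low counts (adjusted p = 0.0473). Hoxb9 kept the highest residual level in D-KO, at 1.51, 1.32 and 2.82 CPM, after 19.7, 15.8 and 10.7 CPM in WT, 4.55, 5.21 and 5.44 CPM in E1-KO and 3.75, 2.61 and 3.51 CPM in E2-KO. Its 57 counts in D-KO stood beside a product of 32.1, and the contrast was 0.81 ± 0.42 (adjusted p = 0.150). Hoxb13, outlying and low, had 57, 29, 38 and 21 counts and a contrast of 0.14 ± 0.75 (adjusted p = 0.9), whose sign turned under 5 settings.

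Across the cluster, 2 of the 10 HoxB genes were called, both positive, beside a background of 18.1% positive and 17.1% negative calls over all genes. The median contrast was 0.65 with Hoxb5 and Hoxb6 at their fitted values, which rest on 0 counts in D-KO and rank lowest. It was 2.16 with both at their upper bounds, beside -0.01 over all genes. Without WT replicate 3, in which most HoxB genes were lowest among WT, 5 were called positive: Hoxb3 (4.04, adjusted p = 0.0372), Hoxb8 (3.05, adjusted p = 0.0439) and Hoxb9 (0.999, adjusted p = 0.0486) joined Hoxb1 and Hoxb2. Without WT replicates 1 and 3, 4 were called. In 5 of the 10, Hoxb4, Hoxb5, Hoxb6, Hoxb7 and Hoxb8, every D-KO library lay below every single-deletion library. Except for Hoxb4, the highest D-KO and lowest single-deletion values were close. They were 0 and 0.0948 CPM for Hoxb5, 0 and 0.107 CPM for Hoxb6, 0.101 and 0.19 CPM for Hoxb7, and 0.303 and 0.313 CPM for Hoxb8. Such gaps rest on very few reads. The scale matters for the cluster: on the CPM scale the separate losses summed to more than the whole WT level in 9 of the 10 genes. For Hoxb4 the WT mean of 29.1 CPM was reduced by 27.7 CPM in E1-KO and by 25.2 CPM in E2-KO, a sum that no positive D-KO level could match.

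**Figure D2:**
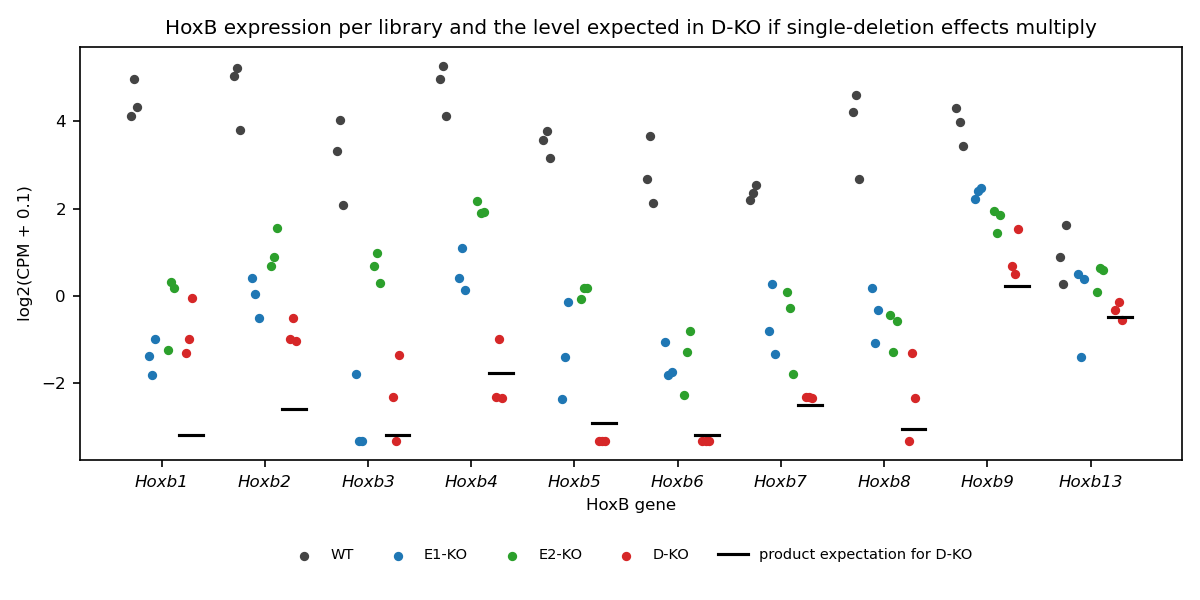
Expression of the 10 HoxB genes in each library, as log2(CPM + 0.1), with 3 points per genotype. Black bars mark the D-KO level if the losses of E1-KO and E2-KO multiply. The D-KO points of Hoxb1 lie above its bar and within the single-deletion points, while those of Hoxb4 lie around its bar and below all of its single-deletion points; points at the bottom are libraries with 0 counts.

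Of 51 tested genes within 1 Mb of either side of the HoxB genes, 6 had a positive and 11 a negative contrast (33.3%, beside 35.2% over all genes), and 7 and 7 once trends with GC content and transcript length had been taken out of each library. Within 2 Mb, 14 of 101 were positive and 29 negative (42.6%), and 14 and 15 with the trends removed. Within 5 Mb the share called was 38.9% of 185. Of 29 tested genes on the list of HoxB neighbours, 4 were positive and 8 negative (41.4%, median -0.23), and 4 and 5 with the trends removed. B4galnt2, a glycosyltransferase gene, gave the smallest p among them. It stood at 2.78, 3.34 and 2.73 CPM in WT, 5.65 to 8.18 CPM in E1-KO, 5.03 to 6.47 CPM in E2-KO and 1.95 to 2.23 CPM in D-KO. All 3 D-KO libraries lay below all 3 WT libraries and all single-deletion libraries lay above both, with a contrast of -2.66 ± 0.32 (adjusted p = 4.07e-05, edgeR). Nfe2l1, encoding a transcription factor that controls proteasome genes, had a contrast of -0.93 ± 0.19 (adjusted p = 0.00217), which was -0.58 with the GC and length trends removed and -0.62 without WT replicates 1 and 3.

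HoxA genes, the paralogues of HoxB on another chromosome, were lower than WT in all 3 edited genotypes, with medians of -2.04, -1.43 and -1.19 log2 units for the E1 deletion, the E2 deletion and D-KO. Of 9 tested, 5 were called positive and none negative (median 2.03, background 18.1% and 17.1%). Hoxa5 stood at 81.2, 103 and 74.1 CPM in WT, 20.6 to 22.4 CPM in E1-KO, 30.6 to 33.9 CPM in E2-KO and 27.3, 34 and 35.9 CPM in D-KO. D-KO overlapped E2-KO and lay above E1-KO, and the contrast was 2.03 ± 0.20 (adjusted p = 7.66e-06, edgeR). Hoxa7 gave 2.29 ± 0.21 and Hoxa4 2.44 ± 0.32. Of the HoxC and HoxD genes, 3 passed the filter on low counts and none was called.

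TALE homeodomain proteins of the Meis and Pbx families bind DNA together with Hox proteins, and 4 of 9 tested were positive and 1 negative, beside 18.1% and 17.1% of all genes. With the GC and length trends removed, 3 were positive and none negative. Meis1 stood at 20.9, 21.7 and 12.5 CPM in WT, 4.18 to 6.16 CPM in E1-KO, 6.45 to 7.4 CPM in E2-KO and 7.87 to 8.5 CPM in D-KO. Its D-KO libraries lay between the single deletions and WT without overlap, with a contrast of 2.01 ± 0.31 (adjusted p = 0.000308, edgeR). Meis2 (0.85 ± 0.16, or 0.43 with the GC and length trends removed) was positive as well.

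Of 19 tested genes of retinoid reception and metabolism, 7 were positive and 3 negative (median 0.76), beside 18.1% and 17.1% of all genes. With the GC and length trends removed, 9 were positive and 1 negative. Cyp26a1, which degrades RA and is itself induced by it, stood at 229, 289 and 146 CPM in WT, 49.5 to 57 CPM in E1-KO, 74.5 to 88.7 CPM in E2-KO and 95.9 to 99.4 CPM in D-KO. D-KO was the highest of the edited genotypes and did not overlap the others, and the contrast was 2.29 ± 0.26 (adjusted p = 2.44e-05). Cyp26b1, another RA hydroxylase (2.34 ± 0.23), and Stra6, the retinol importer (2.26 ± 0.23), were alike in size. Among the receptors, Rarb, itself an RA target, was positive (0.93 ± 0.25, adjusted p = 0.0109). Rara, another RA receptor, was at 0.51 ± 0.31 (adjusted p = 0.214). Aldh1a3, which makes RA, was negative (-3.07 ± 0.75, adjusted p = 0.00518), at 0.119 to 0.617 CPM in WT and 0.202 to 0.607 CPM in D-KO with 1.15 to 1.86 CPM in the single deletions.

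Of 16 tested RA targets outside the Hox clusters, 8 were positive and 2 negative (median 1.62), beside 18.1% and 17.1% of all genes. With the GC and length trends removed, 9 were positive and 1 negative. Gata6, an endoderm transcription factor, stood at 72.7, 69.8 and 69.3 CPM in WT, 15.1 to 17.5 CPM in E1-KO, 34.9 to 38.2 CPM in E2-KO and 45 to 47.7 CPM in D-KO. The 4 genotypes did not overlap, and D-KO came nearest to WT (contrast 2.45 ± 0.14, adjusted p = 1.34e-07). Pdgfra, the growth factor receptor that marks primitive endoderm, gave 3.01 ± 0.26. Tgm2, a transglutaminase induced by RA, went the other way, at 4.04 to 5.27 CPM in WT, 17.9 to 19.7 CPM in E1-KO, 12.9 to 16.1 CPM in E2-KO and 7.87 to 9.41 CPM in D-KO (-2.87 ± 0.23, adjusted p = 1.26e-06).

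The 2-cell-like genes are transcribed in the few cultured stem cells that resemble the cleavage-stage embryo. All 14 tested were positive (median 5.0, beside 18.1% positive calls over all genes), as they were with the GC and length trends removed, and 13 or 14 were positive under every setting tried. Zscan4d, a zinc finger gene of that state, stood at 85.2, 58.1 and 52 CPM in WT, 2.88 to 5.12 CPM in E1-KO, 3.32 to 5.41 CPM in E2-KO and 14, 13 and 11.5 CPM in D-KO. D-KO lay above every single-deletion library and below every WT library, as it did for 10 of the 14 genes. The contrast of Zscan4d was 5.65 ± 0.35 (adjusted p = 2.08e-07, edgeR), and it was higher in D-KO than in E1-KO (1.74 ± 0.25, adjusted p = 0.000584) and E2-KO (1.57 ± 0.25, adjusted p = 0.00332). In bulk RNA, fewer cells in that state and less RNA per cell cannot be told apart. Tcstv3 had 0 counts in a genotype, and its fitted value is not given.

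The Zscan4 genes are copies of each other, so the counts may not be safely assigned to 1 copy. How reads were divided between copies was not tested, and the transcripts were not compared. The 250 bases before the RefSeq starts of Zscan4c (chr7:11005495-11005744, plus strand) and Zscan4d (chr7:11166149-11166398, minus strand, GRCm38.p6) show how close these copies are upstream of their starts. Capitals mark the aligned bases at which they differ.
Zscan4c: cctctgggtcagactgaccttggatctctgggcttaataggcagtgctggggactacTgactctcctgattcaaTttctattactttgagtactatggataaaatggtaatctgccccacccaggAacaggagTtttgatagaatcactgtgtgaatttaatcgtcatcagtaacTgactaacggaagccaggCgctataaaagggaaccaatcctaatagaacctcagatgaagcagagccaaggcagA
Zscan4d: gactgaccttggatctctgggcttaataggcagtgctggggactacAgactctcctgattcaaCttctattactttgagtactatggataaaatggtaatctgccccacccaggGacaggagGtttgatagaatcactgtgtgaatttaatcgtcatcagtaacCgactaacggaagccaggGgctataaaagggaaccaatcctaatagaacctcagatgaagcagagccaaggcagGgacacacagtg
Over 239 aligned bases, 232 (97.1%) were identical and 7 differed. The contrasts of the 6 listed Zscan4 genes, from 5.0 to 5.79, are therefore given as values of the family.

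Stress genes showed the opposite sign, being raised in the single deletions and close to WT in D-KO. Of 21 tested genes of the amino acid and endoplasmic reticulum (ER) stress responses, 15 were negative and 2 positive (median -1.29, background 17.1% and 18.1%). In 13 of the 21 every WT and D-KO library lay below every single-deletion library, a pattern of either sign seen in 12.4% of all genes. Trib3, a pseudokinase induced by the stress factors ATF4 and CHOP, stood at 28.1, 39.6 and 21 CPM in WT, 75.3 to 79.3 CPM in E1-KO, 96.5 to 104 CPM in E2-KO and 34.5 to 40.3 CPM in D-KO. WT and D-KO overlapped and the single deletions lay above both. The contrast was -2.80 ± 0.24 (adjusted p = 2.32e-06, edgeR), and D-KO was lower than E1-KO by the test (-1.06 ± 0.17, adjusted p = 0.00106) and lower than E2-KO (-1.43 ± 0.17, adjusted p = 0.000531). Chac1, which breaks down glutathione, gave -2.47 ± 0.31. The positive members were the ER chaperones Hspa5 (1.16 ± 0.15, adjusted p = 8.87e-05) and Hsp90b1 (1.80), which fold proteins in the ER lumen. Hspa5 stood at 882, 666 and 804 CPM in WT, 491 to 569 CPM in the single deletions and 780 to 804 CPM in D-KO.

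**Figure D3:**
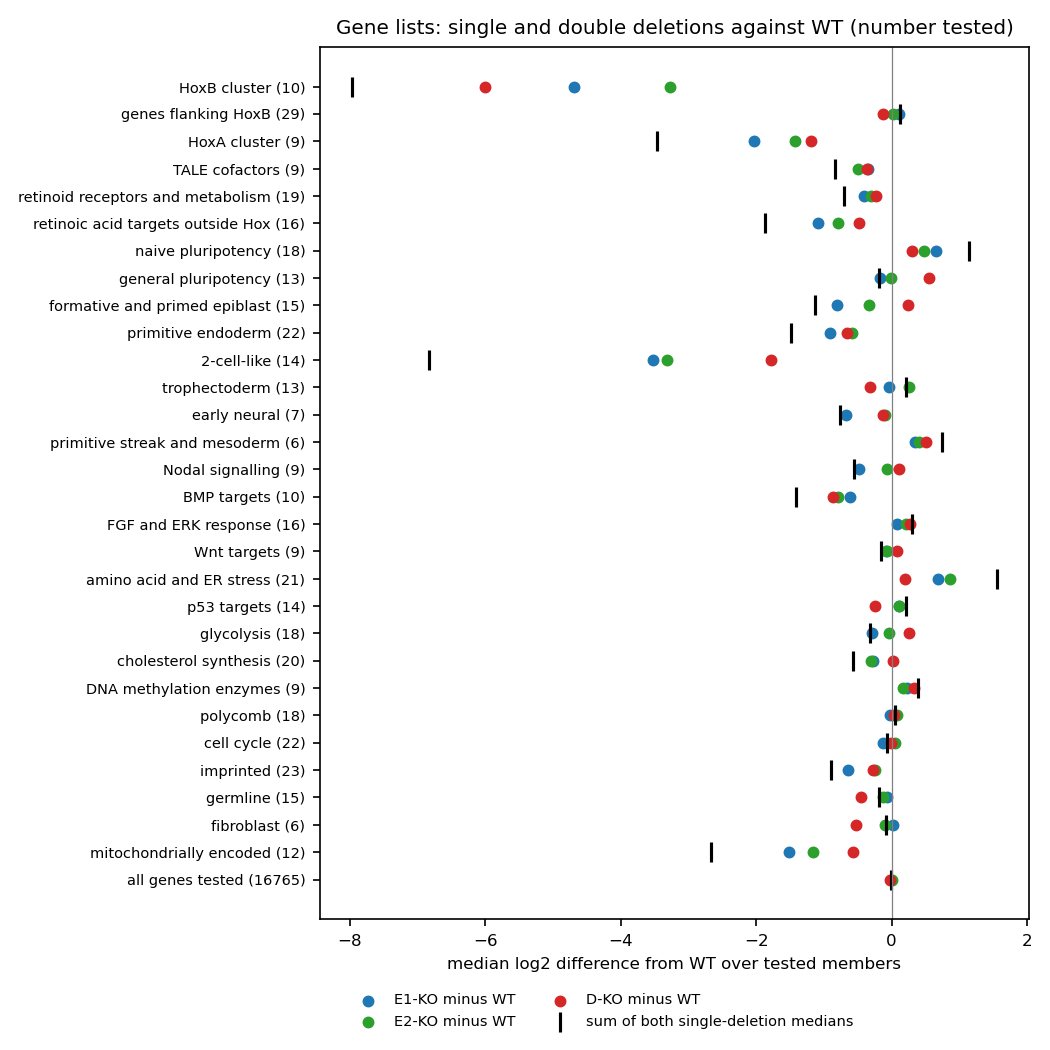
Median log2 difference from WT of each gene list in E1-KO (blue), E2-KO (green) and D-KO (red), with the number of tested members in brackets; black ticks mark the sum of the single-deletion medians. D-KO (red) lies at -1.77 for the 2-cell-like list, short of both single deletions, and at 0.19 for the stress list, between 0 and the single deletions, while in the HoxB list it lies beyond both. For the HoxB and 2-cell-like lists, genes with a genotype at 0 enter with their fitted values.

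Naive pluripotency genes, which hold stem cells in their ground state, were mostly negative. Of 18 naive pluripotency genes, 11 were negative and 1 positive (median -0.85), beside 17.1% and 18.1% of all genes. The same counts were found with the GC and length trends removed. Esrrb, a nuclear receptor of the naive network, stood at 290, 369 and 330 CPM in WT, 791 to 820 CPM in E1-KO, 624 to 665 CPM in E2-KO and 514 to 537 CPM in D-KO. The genotypes did not overlap, with D-KO nearest to WT (-1.61 ± 0.15, adjusted p = 4.32e-06, edgeR). Klf4 (-1.64 ± 0.17) and Prdm14 (-1.85 ± 0.20) were similar, while Socs3, an inhibitor of LIF signalling, was the positive member (0.96). Of 15 formative and primed epiblast genes, which are turned on as naive cells exit, 10 were positive and 2 negative (median 1.08). Sox4 gave 1.81 ± 0.19 and Sall2 1.95 ± 0.22, and Foxd3, a forkhead factor, was negative at -3.55 ± 0.38. Lef1, a Wnt-responsive transcription factor, was low throughout, at 1.26 to 2.02 CPM in WT, 0 to 0.285 CPM in the single deletions and 1.21 to 2.63 CPM in D-KO. D-KO and WT overlapped for Lef1, and the contrast was 6.72 ± 1.04 (adjusted p = 7.36e-05).

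Of 22 primitive endoderm genes, 12 were positive and 5 negative (median 0.83), beside 18.1% and 17.1% of all genes. Cubn, an endocytic receptor of that lineage, stood at 18.7, 15.1 and 25.1 CPM in WT, 0.651 to 1.01 CPM in E1-KO, 2.57 to 4.17 CPM in E2-KO and 6.92 to 7.17 CPM in D-KO. The 4 genotypes did not overlap. Cubn was higher in D-KO than in E1-KO (3.11 ± 0.32, adjusted p = 3.23e-05) and than in E2-KO (1.01 ± 0.24, adjusted p = 0.028), and the contrast was 5.59 ± 0.39 (adjusted p = 2.98e-07). Of 13 trophectoderm genes, 6 were negative and 1 positive. The keratin gene Krt8 stood at 24.7, 34.1 and 42.3 CPM in WT, 72.3 to 86.8 CPM in the single deletions and 37.5 to 39.9 CPM in D-KO (-2.22 ± 0.21, adjusted p = 6.16e-06). Early neural genes were 3 positive of 7 (42.9% called), and primitive streak and mesoderm genes 2 negative of 6 (33.3% called). Both shares lay near the 35.2% called over all genes. The negative pair, Hand1 and Wnt3a, lost their calls under 11 or more of 21 settings.

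In signalling, 6 of 9 Nodal pathway genes were positive and 2 negative (median 0.80), beside 18.1% and 17.1% of all genes. Lefty1, a secreted Nodal inhibitor that Nodal itself induces, stood at 39.9, 77.6 and 43.4 CPM in WT, 5.5 to 8.77 CPM in E1-KO, 13.4 to 16 CPM in E2-KO and 26.3 to 32.4 CPM in D-KO. D-KO lay between the single deletions and WT without overlap (3.95 ± 0.34, adjusted p = 2.85e-06, edgeR). The inhibitory SMAD gene Smad7 ran in the other direction, at 46.7, 78.3 and 29.5 CPM in WT, 135 to 181 CPM in the single deletions and 57.5 to 66.5 CPM in D-KO (-3.03 ± 0.33, adjusted p = 2.52e-05). Of 10 BMP targets, 4 were positive and 3 negative, among them Id2, an inhibitor of bHLH factors (3.59 ± 0.33). Of 16 FGF and ERK response genes, 1 was positive and 2 negative (18.8% called, below the 35.2% of all genes). With the GC and length trends removed, 4 were positive and 1 negative. Over all settings 1 to 5 were positive and 1 to 4 negative.

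Sorting the called genes by where D-KO lay gave small distinct classes beside a large remainder. Thresholds of 0.5 and 1 log2 unit on the fitted differences from WT set most classes. The class beyond the sum was set by signs alone. The values below therefore describe the classes. Where thresholds apply, they also set how large a contrast must be, so the numbers called do not rank the patterns. In 826 called genes all edited genotypes differed from WT by at least 1 in the same direction, with a contrast of the opposite sign. Of all genes tested, 1121 (6.69%) had that pattern. Cyp2b23, a cytochrome P450 gene, was the clearest of these, at 3.19, 3.26 and 2.14 CPM in WT, 59 to 66.4 CPM in E1-KO, 75.1 to 82.3 CPM in E2-KO and 77.3 to 79.8 CPM in D-KO. D-KO differed from E2-KO by -0.02 ± 0.11 (adjusted p = 0.941, edgeR), and the contrast was -4.43 ± 0.18 (adjusted p = 5.41e-09). Egr4, an early-response zinc finger gene, had 0 to 0.148 CPM in WT, 3.44 to 4.8 CPM in the single deletions and 4.19 to 5.46 CPM in D-KO (-5.39 ± 0.91). Grb10, an imprinted inhibitor of growth factor signalling, stood at 408 to 445 CPM in WT, 31.8 to 33.5 CPM in E1-KO, 49.2 to 55.8 CPM in E2-KO and 22.9 to 27 CPM in D-KO. D-KO was the lowest for Grb10 but far above the product of 3.91 CPM, and the contrast was 2.67 ± 0.14 (adjusted p = 6.02e-08).

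Msx1 was among the 10 most positive called contrasts of genes at an average log2 CPM of at least 1, predicted loci left out, and Loxl4 and Slc13a5 were among the 10 most negative. Msx1, a homeobox gene of the BMP response, stood at 9.57, 9.49 and 5.58 CPM in WT, 0 to 0.279 CPM in E1-KO, 0.19 to 0.322 CPM in E2-KO and 0.584 to 0.708 CPM in D-KO (6.95 ± 0.92, adjusted p = 2.7e-05, edgeR). D-KO lay above every single-deletion library and far below WT. Loxl4, a lysyl oxidase gene of collagen crosslinking, stood at 0.119 to 0.371 CPM in WT, 6.51 to 8.47 CPM in E1-KO, 6.74 to 8.14 CPM in E2-KO and 0.877 to 2.32 CPM in D-KO. Its D-KO libraries lay between WT and the single deletions, with a contrast of -7.13 ± 0.62 (adjusted p = 6.55e-07). The citrate transporter gene Slc13a5 gave -5.90 ± 0.39.

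In 237 called genes the single deletions each differed from WT by at least 1 and D-KO by less than 0.5. That pattern was held by 257 (1.53%) of all genes tested, and it sets the contrast away from 0. Ebf1, a transcription factor of B cell and neural development, stood at 16.2, 12.2 and 23.2 CPM in WT, 3.53 to 4.46 CPM in E1-KO, 4.17 to 6 CPM in E2-KO and 20.8, 15.9 and 20.1 CPM in D-KO. WT and D-KO overlapped, and all 6 single-deletion libraries lay below them. D-KO minus E1-KO was 2.27 ± 0.24 (adjusted p = 7.84e-05) and D-KO minus E2-KO 1.84 ± 0.24 (adjusted p = 0.000874), with a contrast of 3.97 ± 0.34 (adjusted p = 2.47e-06). The kinase gene Lrrk2 (4.05 ± 0.51), the cyclin-like gene Ccno (4.35 ± 0.49) and Mgat4d (4.42 ± 0.56) were of the same class, and the small heat shock gene Hspb2 (-4.57 ± 0.71) was its most negative member named here.

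In 53 called genes, of 62 tested with that pattern (0.37% of all), D-KO lay on the other side of WT from both single deletions, by at least 0.5. Enpp3, an ecto-nucleotidase gene, stood at 12.7, 12.5 and 18.3 CPM in WT, 4.09 to 4.74 CPM in E1-KO, 6.78 to 9.77 CPM in E2-KO and 29.5 to 31.4 CPM in D-KO. The 4 genotypes did not overlap, and D-KO was the highest (contrast 3.66 ± 0.27, adjusted p = 6.22e-07). Trim66, a bromodomain protein gene, went the opposite way, at 1.54 to 2.52 CPM in WT, 8.28 to 9.96 CPM in E1-KO, 5.79 to 6.65 CPM in E2-KO and 0.584 to 2.12 CPM in D-KO. Trim66 libraries of WT and D-KO overlapped, and D-KO minus WT alone was not called (-0.75 ± 0.37, adjusted p = 0.16), while the contrast was (-4.39 ± 0.47, adjusted p = 1.18e-05).

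Few genes changed mainly in D-KO under the thresholds above. The single deletions were each within 0.5 of WT and D-KO at least 1 away in 139 tested genes (0.829%). Of these, 33 were called, 11 positive and 22 negative. Elk3, an ETS repressor, stood at 5.35, 6.67 and 7.72 CPM in WT, 6.32 to 8.17 CPM in E1-KO, 5.95 to 7.29 CPM in E2-KO and 1.62 to 2.24 CPM in D-KO. The D-KO libraries lay below all 9 others, and the contrast was -1.97 ± 0.31 (adjusted p = 0.000342, edgeR). Ank, a pyrophosphate transporter gene (-2.0 ± 0.29), and Vldlr, a lipoprotein receptor gene (-1.73 ± 0.30), behaved likewise. Notum, which encodes a secreted inhibitor of Wnt proteins, stood at 13.2, 25.1 and 8.55 CPM in WT, 11.6 to 16.4 CPM in the single deletions and 38.8 to 44.1 CPM in D-KO. All D-KO libraries were above all others, with a contrast of 1.65 ± 0.39 (adjusted p = 0.00563). Notum shares its locus with an antisense gene, and the sources used here do not give the strand setting of the counting, so reads of that pair cannot be told apart.

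Outside the class changed mainly in D-KO, 6 called genes had a D-KO difference beyond the sum of 2 single-deletion differences of the same sign. They were Ak7, Slc47a1, Klhl13, Zfp532, Ppp2r2c and Mmrn2, beside 1011 tested genes placed in that class. The class was set by signs alone, so a single-deletion difference in it can be small and need not be called. Genes of that order that met the thresholds of the class changed mainly in D-KO were counted there, so 6 is not the number of all such genes. Ak7, an adenylate kinase gene of cilia, stood at 14.4, 11.2 and 8.91 CPM in WT, 12.7 to 14.7 CPM in E1-KO, 15.6 to 20 CPM in E2-KO and 34.4 to 38.6 CPM in D-KO. Its D-KO libraries lay above all others and above the product of 20.3 CPM (contrast 0.82 ± 0.24, adjusted p = 0.0166). Each of the 6 lost its call under at least 1 alternative: Ak7 under scaling by library totals, Klhl13 (0.55 ± 0.16, adjusted p = 0.015) with the GC and length trends removed, where its contrast was 0.12, and the others under 2 to 10 of 21 settings. No HoxB gene was called in this class. For those with a product level below what these libraries can count, such as Hoxb1, Hoxb5 and Hoxb6, a loss beyond the sum could not have been called. Their absence from the class therefore decides nothing.

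**Figure D4:**
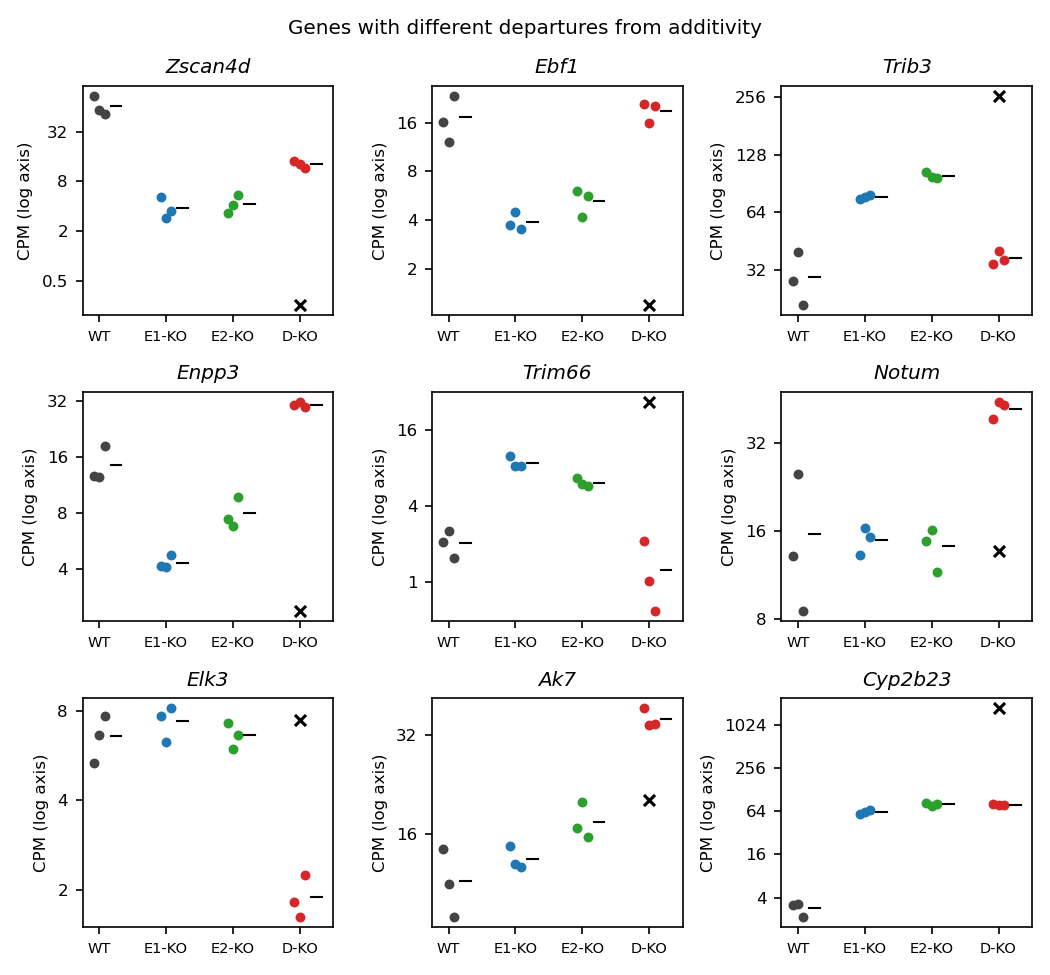
CPM per library on a log axis for 9 genes; coloured points are the 3 libraries of each genotype, short black lines their means, and crosses the D-KO level if the single-deletion effects multiply. D-KO lies between the single deletions and WT for Zscan4d, back within or near WT for Ebf1 and Trib3, beyond WT for Enpp3, apart from all others for Notum, Elk3 and Ak7, overlapping WT for Trim66, and with the single deletions for Cyp2b23, where the cross lies far above.

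The contrast followed the GC content of genes. Across 16271 genes with a GC value, the Spearman correlation of the contrast with the GC content of the longest transcript was -0.474, a description across genes that share the same 12 libraries. The median contrast was 0.68 in genes under 40% GC, 0.46 from 40% to 45%, 0.16 from 45% to 50%, -0.22 from 50% to 55% and -0.59 at 55% or more. Of the genes under 40% GC, 42.6% were called positive and 1.48% negative, and of those at 55% or more, 4.77% and 33.7%. Once these trends were taken out of each library, together with those in transcript length, 5353 genes (32.9% of 16271) were called, 2912 (17.9%) positive and 2441 (15%) negative. Of the 5909 original calls, 3856 (65.3%) were called again in the same direction and none in the opposite one. The contrast of Zscan4d went from 5.65 to 5.23, that of Cubn from 5.59 to 5.16, that of Trib3 from -2.80 to -2.16 and that of Esrrb from -1.61 to -1.21 with the removal, the smallest size of each under the 21 settings. Hoxb1 went from 5.60 to 5.94 and Cyp2b23 from -4.43 to -4.52.

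**Figure D5:**
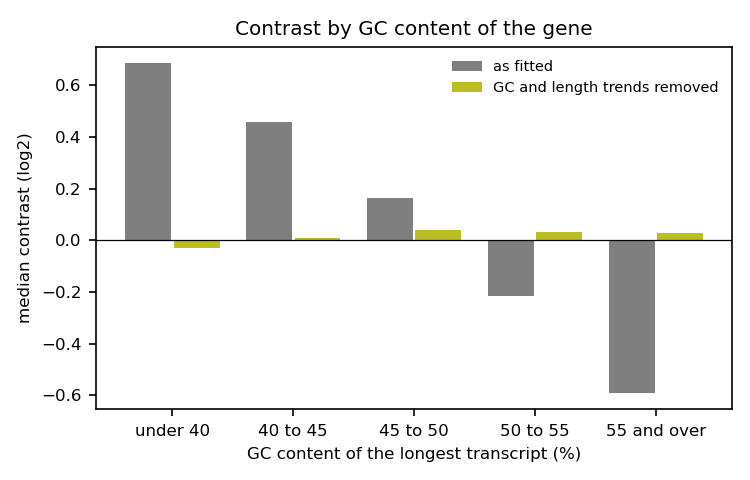
Median contrast (log2) of the genes in 5 bins of GC content, as fitted (grey) and with GC and length trends removed from each library (yellow-green). The grey bars fall from 0.68 in the lowest bin to -0.59 in the highest, and the other bars stay between -0.03 and 0.04.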

How the data were processed

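RNA was extracted with Trizol and sequenced, per the labels' protocols. Whole-number read counts per gene were deposited by the authors, 1 table per library; the submitters' processing notes list HISAT2 2.1.0, HTSeq 0.9.1, DESeq2 1.18.1 and the mm10 build without assigning roles. No annotation or strand setting is given in the sources used. Lines of reads not assigned to genes were removed; reads on no feature numbered 1.11 to 1.2 times the counted ones. Counts were analysed in R 4.3.3 with edgeR 4.0.16: filterByExpr on genotype, TMM, 1 mean per genotype over all 12 libraries, robust quasi-likelihood fit, Benjamini-Hochberg adjustment over 16765 genes. Gene positions and GC content came from GENCODE M21. The fit was tested on simulated counts. These gave a gene the same spread in every genotype and no shift between libraries of a genotype. They do not test the fit under the wider WT spread and the GC differences between WT libraries.

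Named genes are all HoxB genes, the 10 largest positive and 10 largest negative called contrasts at an average log2 CPM of at least 1, up to 6 per class of pattern and up to 3 called members per list with the smallest adjusted p. Genes outside that rule, such as Nanog, Rara, Rarb, Aldh1a3, Socs3 and Hsp90b1, were chosen after their values were seen. Some genes that the rule picks are not reported here. The comparison, the members and the 32 gene lists were chosen with earlier results of these data known. Of the list genes, 70 were not tested because of low counts. Alternatives were RLE size factors, library totals, DESeq2 1.42.0, limma 3.58.1 (voom with a weight per genotype), other filters, a replicate block, removal of GC and length trends, and leaving out libraries.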

Additional observations from a re-analysis of the deposited data

Results flagged for a closer look

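The contrast can be read as the difference in the effect of deleting E2 between cells with and without E1. A difference from WT shared by the edited lines enters it too and cannot be told apart from that effect. By the test of the contrast itself, 5909 genes were called (edgeR's quasi-likelihood test, adjusted p below 0.05). Among these, 33 differed from WT by at least 1 log2 unit in D-KO with both single deletions within 0.5, as for Elk3. In 237 the single deletions each differed by at least 1 and D-KO by less than 0.5, as for Ebf1. In 53 D-KO lay on the other side of WT from both single deletions, as for Enpp3. Of all genes tested, called or not, 139, 257 and 62 met the same thresholds in that order.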

How the results depend on the processing

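The contrast was called for 5909 genes, and for 4621 to 8673 when any 1 library was left out (8673 without WT replicate 2). The other settings gave 5353 to 6934, and under none of the 21 was a gene called here called in the opposite direction. On the linear CPM scale all 124 named genes with a value kept the sign of their contrast. Where the single-deletion means sum to less than WT, as for most HoxB genes, the linear contrast is positive at any D-KO level. Its sign is then no check. Hoxb4, at 0.126 in log2, stood at 24 CPM on the linear scale. Of 118 called genes picked by the naming rule, 103 kept their call and direction in all 21. DESeq2 called 1136 genes between D-KO and E2-KO, no filter on low counts 1472 and removal of GC and length trends 1491, in place of 751. With a weight per genotype, limma voom called 3278 for E1-KO, 3229 for E2-KO and 1927 for D-KO against WT, 7960 for D-KO against E1-KO and 5678 for D-KO against E2-KO. Without WT replicates 1 and 3, D-KO differed from WT in 6238 genes, from E1-KO in 8030 and from E2-KO in 6158; the 1 remaining WT library is then assumed to vary like the other genotypes. Leaving out any 1 library gave 3965 to 8753 genes for E1-KO, 3969 to 8887 for E2-KO and 2413 to 7006 for D-KO against WT, 1174 to 4934 for D-KO against E1-KO and 227 to 2875 for D-KO against E2-KO. The cause of these shifts was not tested. The contrast of Hoxb4 turned to -0.0181 with library totals, -0.131 without WT replicate 2, -0.0683 without E1-KO replicate 3 and -0.811 without D-KO replicate 2, the lowest of its values with 1 library left out, of which 0.477 without E1-KO replicate 2 was the highest. That of Hoxb13 turned to -0.0467 with library totals, -0.29 without WT replicate 3, -0.293 without E1-KO replicate 2, -0.019 without E2-KO replicate 1 and -0.631 without WT replicates 1 and 3, and it reached 0.487 without E1-KO replicate 1. For HoxB genes near 0 counts, a genotype's 3 libraries cannot resolve a level under 3 counts.

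Replicate numbers did not pair the libraries: of 18 same-numbered pairs, 0 had a correlation of deviations above 0.1 (-0.0776 to 0.0823). A fit with the replicate block called 5609 genes in the contrast.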

Other observations

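Of 18 glycolysis genes, 8 had a positive and 3 a negative contrast (median 0.52), beside 18.1% and 17.1% of all genes, and 12 and 2 with GC and length trends removed. Tpi1, a triose phosphate isomerase gene, stood at 329, 405 and 302 CPM in WT, 136 to 145 CPM in E1-KO, 199 to 211 CPM in E2-KO and 322 to 333 CPM in D-KO. WT and D-KO overlapped, and the single deletions lay below them (contrast 1.98 ± 0.16, adjusted p = 1.24e-06, edgeR). Of 20 cholesterol synthesis genes, 10 were positive and 1 negative (median 0.48). Dhcr7, a late enzyme of the pathway, stood at 28 to 30.1 CPM in WT, 17.2 to 18.9 CPM in E1-KO, 18.1 to 22.5 CPM in E2-KO and 28.9 to 31.2 CPM in D-KO (1.30 ± 0.17, adjusted p = 9.65e-05).

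Of 23 imprinted genes, 9 were positive and 1 negative (median 0.64). H19, a maternally expressed non-coding RNA, was the negative one and was chosen after its values were seen; it stood at 0.119 to 3.19 CPM in WT, 23.1 to 24.7 CPM in E1-KO, 1.99 to 4.07 CPM in E2-KO and 2.32 to 3.74 CPM in D-KO, high in E1-KO alone (-3.69 ± 0.66, adjusted p = 0.000926, edgeR). Mest, a paternally expressed gene, gave 2.26 ± 0.14. Of 14 p53 targets 6 were negative and 2 positive, of 22 cell cycle genes 8 were positive and 2 negative, of 18 polycomb genes 3 were positive and 5 negative, of 9 DNA methylation and demethylation genes 2 and 1, and of 15 germline genes 2 and 3, beside 35.2% of all genes called in either direction. The last 3 lists (44.4%, 33.3% and 33.3% called) lay near that share, and their counts with GC and length trends removed were 2 and 4, 2 and 3, and 1 and 6. Of 9 Wnt targets 4 were positive and 1 negative, and of 13 general pluripotency genes 7 and 5. Of 12 fibroblast markers 6 were tested and 2 were negative (Pdgfrb and Thy1, whose calls were lost with GC and length trends removed), while Lum and S100a4 had 0 counts in every library. Of 12 mitochondrially encoded genes 11 were positive and none negative (median 2.18), moving with the mitochondrial share of counts given above. Of 3 HoxB non-coding RNAs none was called, and the 4 tested Y-linked genes have no contrast value because the edited genotypes were at or near 0.

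On the autosomes the share of genes called ranged from 28.3% on chromosome 8 to 40.3% on chromosome 18, and it was 38.9% on chromosome X. Genes of chromosome 6, which carries HoxA, had a median below WT in all 3 edited genotypes (-0.289, -0.254 and -0.314 log2 units for E1-KO, E2-KO and D-KO). Their median contrast of 0.277, or 0.23 with GC and length trends removed, was the highest of the 19 autosomes both ways, with 35.8% called.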
